A study of Mus musculus with 14 samples.

Results

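The genes described here serve the folding of secreted proteins in the endoplasmic reticulum (ER): its chaperones, its disulfide-forming enzymes, the sensors that react to misfolded protein and the machinery that degrades it. They were chosen by symbol, with earlier results of these data known. All 31 were found among the 54532 genes of the count table, and all 31 passed the filter on low counts, so they were among the 18732 genes tested. RNA had been sequenced from pancreatic islets of C57BL/6JRj mice taken at postnatal day 0 and cultured for 1 day in medium with 11 mmol/l glucose. The medium held either DMSO, the solvent control, or 10 µmol/l adjudin, an indazole compound that was developed as a male contraceptive. There were 7 DMSO and 7 Adjudin libraries, each from the pooled islets of several newborn pups of either sex according to the methods, and the labels put each DMSO library and the Adjudin library of the same number in 1 batch, so these form a pair. The comparison asks whether adjudin altered the folding machinery of P0 islets.

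A beta cell folds large amounts of proinsulin, whose disulfide bonds must form in the ER, and it depends on this machinery more than most cells do. Hspa5 (BiP), an ATP-driven chaperone, binds unfolded chains, oxidases and protein disulfide isomerases form and rearrange disulfide bonds, and the lectins calnexin and calreticulin hold glycoproteins until they are folded. When unfolded protein builds up, the sensors Ern1 (IRE1α), Eif2ak3 (PERK) and Atf6 start the unfolded protein response, which raises transcription of the chaperone genes through the ER stress element (ERSE) in their promoters. Gene counts show the amount of mRNA. They do not show the splicing of Xbp1 by IRE1α, the phosphorylation of PERK or the cleavage of ATF6.

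The ERSE letters are shown first, as background on these promoters. Chaperone genes are known targets of this element, so a high share follows from the choice of genes. It is not a result of these libraries. Of the 31 genes, 27 had a promoter window in the RefSeq table of build GRCm38.p6, which spans 250 bases before to 50 bases after the transcription start. The motif searched was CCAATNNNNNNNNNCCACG on both strands, and 10 of the 27 genes held it (37.0%), against 37 of the 27025 genes in that table (0.137%). The second form, ERSE-II, was searched as ATTGGNCCACG on both strands, where it shares the letters CCACG with ERSE, and it stood in 2 of the 27 genes (7.41%) against 12 of 27025 (0.0444%). Each site is printed 5′ to 3′ on the strand that reads CCAAT or ATTGG first, with the fixed letters of the motif in capitals and the spacer in lower case.
Hspa5: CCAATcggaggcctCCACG
Hsp90b1, site farther from the start: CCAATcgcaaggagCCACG
Hsp90b1, site nearer to the start: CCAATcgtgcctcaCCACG
Dnajc3: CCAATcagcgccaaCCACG
Creld2: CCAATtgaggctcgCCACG
Pdia6: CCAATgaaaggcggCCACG
Ero1lb: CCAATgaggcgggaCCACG
Calr: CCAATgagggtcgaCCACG
Canx: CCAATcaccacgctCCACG
Syvn1: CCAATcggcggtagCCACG
Derl3: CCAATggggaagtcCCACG
Dnajb11, ERSE-II: ATTGGcCCACG
Herpud1, ERSE-II: ATTGGgCCACG

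The Hspa5 site lies at chr2:34772025-34772043 on the gene's own strand, and its first base is 65 bases before the RefSeq transcription start. The deposited position of Hspa5 begins at 34771970, so by that annotation the site lies inside the gene. Distances given here are from the RefSeq start. The 2 sites of Hsp90b1, the ER member of the HSP90 family, lie 212 and 107 bases before the start and on opposite strands. In Ero1lb, the oxidase that is enriched in beta cells, the site lies at chr13:12565682-12565700, 201 bases before the start, and it reads on the strand opposite to the gene. The 250 bases before the start of both genes are given as the wider context of these sites, on the strand of the gene and with the fixed letters in capitals.
Hspa5, chr2:34771840-34772089, plus strand: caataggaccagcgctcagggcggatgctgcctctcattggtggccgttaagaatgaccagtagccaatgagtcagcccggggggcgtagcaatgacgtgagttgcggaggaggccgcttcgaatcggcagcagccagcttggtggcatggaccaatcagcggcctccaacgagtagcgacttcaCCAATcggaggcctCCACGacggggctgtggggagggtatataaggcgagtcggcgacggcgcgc
Ero1lb, chr13:12565633-12565882, plus strand: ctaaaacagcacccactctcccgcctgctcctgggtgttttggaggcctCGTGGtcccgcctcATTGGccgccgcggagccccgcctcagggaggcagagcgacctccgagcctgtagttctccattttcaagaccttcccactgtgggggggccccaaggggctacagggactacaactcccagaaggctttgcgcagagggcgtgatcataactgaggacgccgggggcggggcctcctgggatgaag

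Depth ranged from 26475749 to 36900026 counts per library, except for DMSO replicate 7 with 108865228, so that the least abundant of the 31 genes, Derl3, still had 67 to 508 counts per library. A value in CPM is the count of a gene scaled to the total of its library, and fitted fold changes and differences within pairs also carry the TMM scaling of edgeR. The labelled tissue was checked against markers. Summed over the marker list, beta cell genes lay between 27.3 and 18111 CPM in DMSO libraries and between 1322 and 17000.4 CPM in Adjudin libraries, and mesenchymal genes, collagens among them, between 19466 and 37018 CPM in all libraries. DMSO replicate 5 stood apart, with Ins1 and Ins2 together at 9.71 CPM against 4158 CPM or more in the other DMSO libraries, while its partner Adjudin replicate 5 had 959 CPM, the lowest of the Adjudin libraries. In bulk RNA, fewer cells of a type and less RNA per cell cannot be told apart.

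No change of the ER folding genes with adjudin passed the test, and for 17 of the 31 the interval of the difference stayed within 0.25 of 0 on the log2 scale. Of the 31 genes, 0 passed edgeR's quasi-likelihood test at an adjusted p of 0.05, 0 had an unadjusted p under 0.05, and 27 had a log2 fold change within 0.1 of 0. Over all genes tested, 1 of 18732 passed (0.00534%) and 424 had an unadjusted p under 0.05 (2.26%). Small values were common there too, as the median log2 fold change without its sign was 0.0887 over all genes and 0.0401 over the 31. DESeq2 and limma-voom without the pairs also gave 0 of the 31 at either level. The median log2 fold change of the 31 genes was −0.00 and that of all genes tested was −0.01, and 15 of the 31 values were positive and 16 negative. The 95% interval of the difference held 0 for all 31 genes. For 17 genes both bounds lay within 0.25 of 0 on the log2 scale, a 1.19-fold change, and with the replicate number as a block 26 genes met that limit. The share of all genes tested that met this limit, or had a value within 0.1 of 0, was not counted.

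**Figure D1:**
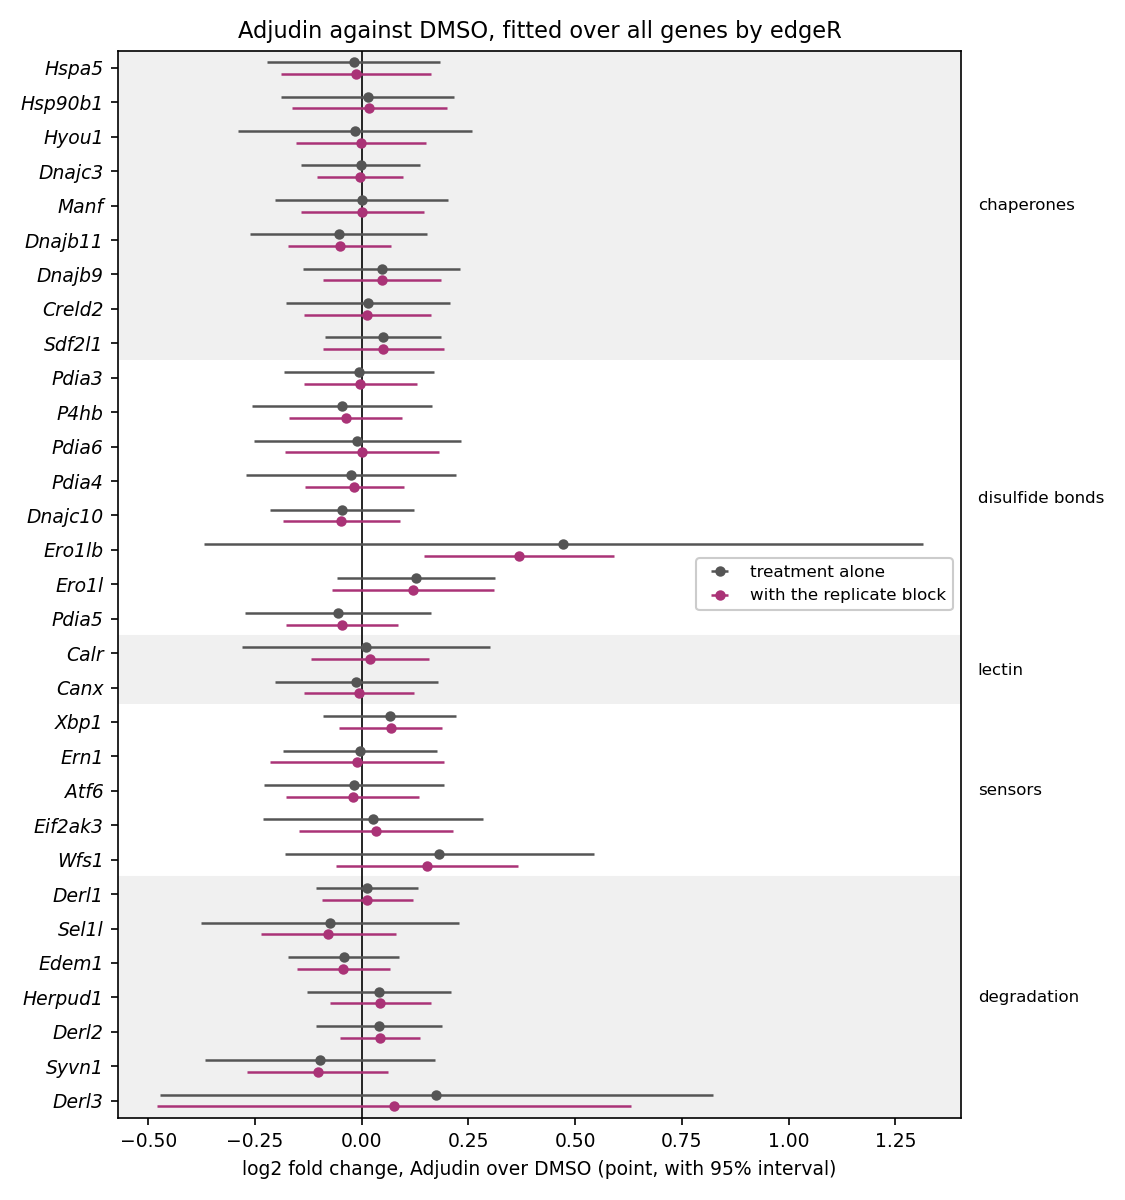
Log2 fold change of each of the 31 genes (x axis, Adjudin over DMSO, 7 libraries each) with its 95% interval, from edgeR's fit with treatment alone (grey) and with the replicate number as a block (purple), with genes grouped by role on the y axis. Every grey interval holds 0, and with the block the interval of Ero1lb, 0.15 to 0.59, is the only one that does not.

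Because same-numbered libraries shared a batch, the genes were also fitted with the replicate number as a block. Ero1lb had an unadjusted p of 0.00438 by edgeR in that fit, and no other gene of the 31 was under 0.05. Its adjusted p of 0.729 did not pass, and neither did its adjusted p of 0.0903 by DESeq2 with the block. In the blocked edgeR fit 0 of all genes tested passed (0%), 609 were higher at an unadjusted p under 0.05 (3.25%) and 446 lower (2.38%). DESeq2 with the block called 105 of 18368 genes (0.572%), and 0 of the 31, of which Ero1lb had an unadjusted p of 0.00073. Within the pairs, 177 of all genes tested were higher in 7 of 7 (0.945%) and 160 lower in 7 of 7 (0.854%), and of the 31 genes 1 was higher in 7 of 7, Ero1lb, and 0 were lower in 7 of 7.

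Hspa5 (ENSMUSG00000026864, chromosome 2, 34771970 to 34777547 in GRCm38/mm10), the master chaperone of the compartment and a standard readout of ER stress, was among the most abundant of the 31 genes. Its level in DMSO replicates 1 to 7 was 1083, 1350.3, 1557, 1516, 1308, 1483 and 1375 CPM, and in Adjudin replicates 1 to 7 it was 1355, 1272, 1309.7, 1544, 1354, 1492 and 1328 CPM. The Adjudin range lay wholly inside the DMSO range. The means were 1382 ± 161 and 1379 ± 100.2 CPM (SD, n = 7 each), with a log2 fold change of −0.02 ± 0.10 (SE) and a 95% interval of −0.22 to 0.18. DMSO replicate 5, with almost no insulin mRNA, had 1308 CPM of Hspa5, close to the 1354 CPM of its Adjudin partner.

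The other chaperones and cochaperones behaved alike. Hsp90b1, which folds client proteins late in their maturation, averaged 1053 ± 105 CPM with DMSO and 1077 ± 93.0 CPM with Adjudin, with 932 to 1254 CPM and a median of 1024 in DMSO and 922 to 1178 CPM and a median of 1106 in Adjudin libraries. Its highest value was in DMSO replicate 7. Hyou1, the nucleotide exchange factor of Hspa5, was at 231 ± 46.6 and 231 ± 35.1 CPM, with a log2 fold change of −0.02. The J-domain cochaperones that pass substrates to Hspa5 had log2 fold changes of 0.05 (Dnajb9), −0.05 (Dnajb11) and −0.00 (Dnajc3). Manf and Creld2, secreted ER proteins that stress induces in other settings, had values of 0.00 and 0.01. Sdf2l1, a subunit of ER chaperone complexes, had the smallest p of this role, 0.456 by edgeR. It was at 44.3 to 55.5 CPM with a median of 50.4 in DMSO and 49.2 to 56.4 CPM with a median of 51.2 in Adjudin libraries. The 9 genes of this role had a median log2 fold change of 0.00, with 5 positive and 4 negative, and their summed level was 2862 to 3681 CPM with DMSO and 3198 to 3686 CPM with Adjudin.

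**Figure D2:**
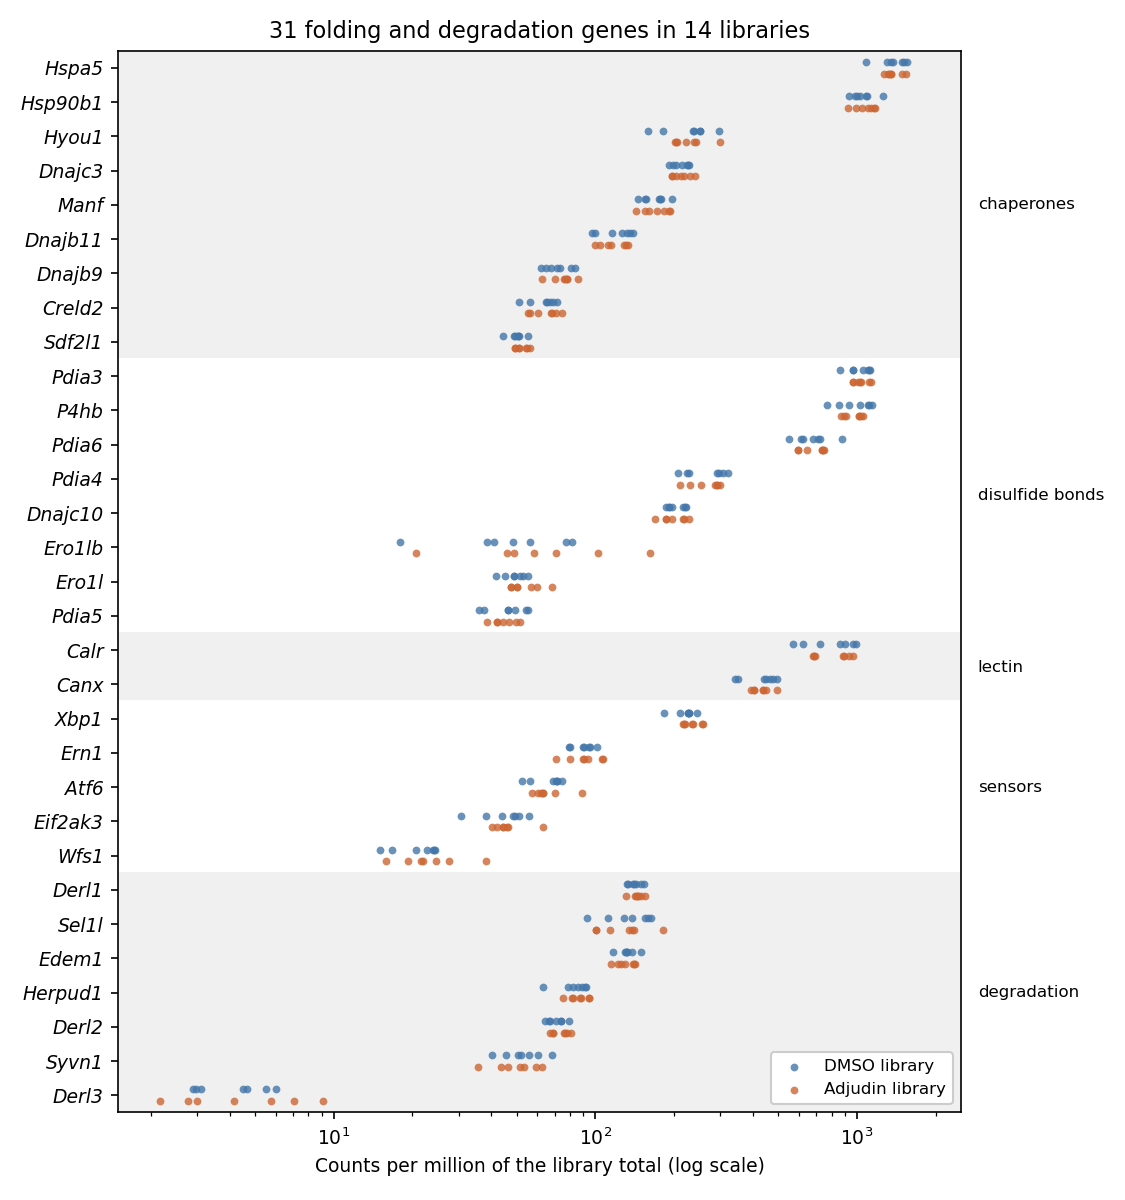
Level of each of the 31 genes in CPM of the library total (x axis, log scale) in the 7 DMSO (blue) and 7 Adjudin (orange) libraries, 1 point per library, with genes grouped by role. The ranges of both groups overlap for every gene shown, but the share of all genes tested that overlap was not counted. Only Ero1lb, Derl3 and Wfs1 of the 31 spread widely over the libraries.

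Of the 31 genes, 2 disulfide isomerases had the highest mean DMSO levels relative to the deposited gene length. On the scale of CPM per kilobase, DMSO levels were 347 ± 50.3 for P4hb, the classical protein disulfide isomerase, 327 ± 31.6 for Pdia3, which acts with the lectin chaperones, and 327 ± 38.0 for Hspa5 (SD, n = 7). Calr at 279.8 ± 58.1 and Hsp90b1 at 261 ± 25.99 CPM per kilobase came next. Neighbours among these 5 differed by less than the larger of their SDs between libraries. Derl3 was lowest, at 2.13 ± 0.636 CPM per kilobase.

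P4hb (ENSMUSG00000025130, chromosome 11, 120560298 to 120573253) ranged from 769 to 1146 CPM in DMSO libraries, with a median of 1032, and from 869 to 1058 CPM in Adjudin libraries, with a median of 1016. It was lower in Adjudin in 6 of 7 pairs on the TMM-scaled values, with differences between −0.14 and 0.18 on the log2 scale and a log2 fold change of −0.05 ± 0.10 (SE). Pdia3 ranged from 859.7 to 1124 CPM in DMSO, with a median of 1053, and from 963 to 1132 CPM in Adjudin libraries, with a median of 1026. Its log2 fold change was −0.01 ± 0.08 (SE). The isomerases Pdia6, Pdia4 and Pdia5 had log2 fold changes of −0.01, −0.03 and −0.06, and the reductase Dnajc10, which breaks wrong disulfide bonds before degradation, had −0.05. Both groups overlapped for each of these enzymes.

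Ero1lb (ENSMUSG00000057069, chromosome 13, 12565874 to 12611396) oxidises the protein disulfide isomerases and serves proinsulin folding. With the block it alone of the 31 genes had an unadjusted p under 0.05 by edgeR, and its adjusted p was 0.729. Of all genes tested, 3.25% were higher at that unadjusted level, so 1 such gene among 31 is no more than this background share. In DMSO replicates 1 to 7 Ero1lb was at 38.5, 81.3, 77.3, 56.4, 18.0, 48.5 and 41.1 CPM, and in Adjudin replicates 1 to 7 at 48.8, 102, 162, 70.7, 20.6, 58.5 and 45.9 CPM. Each Adjudin library lay above its DMSO partner, yet the groups overlapped widely, because the pairs differed far more from each other than the treatments did. The means were 51.6 ± 22.3 and 72.6 ± 46.6 CPM (SD, n = 7 each). The log2 fold change was 0.47 ± 0.39 (SE) with an unadjusted p of 0.2504 by edgeR without the block, and 0.37 ± 0.10 (SE) with it, a 1.29-fold difference with a 95% interval of 1.11 to 1.51. Without Adjudin replicate 3, the highest library, the unblocked value was 0.16, and without DMSO replicate 5 it was 0.31. With the block and without pair 3 it was 0.28, and over all pairs left out in turn the unadjusted p stayed between 0.00113 and 0.0112. Its broadly expressed paralogue Ero1l had 41.9 to 55.2 CPM with a median of 49.0 in DMSO and 47.5 to 68.5 CPM with a median of 50.1 in Adjudin libraries, an unadjusted p of 0.166 by edgeR for a log2 fold change of 0.13 ± 0.09 (SE), and it was higher in 4 of 7 pairs.

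Ero1lb was higher in the pairs with more beta cell mRNA. Of 10 beta cell genes, 0 passed edgeR's test with or without the block, 0 and 5 had an unadjusted p under 0.05 in these fits, and DESeq2 with the block called 1. The beta cell score, the mean log2 CPM of these genes, which do not include Ero1lb, was 0.43 to 7.06 in DMSO and 3.71 to 7.62 in Adjudin libraries and was higher with Adjudin in 6 of 7 pairs, by 0.84 in the means, a difference with no test of its own. Over the means of the 7 pairs, Ero1lb correlated with this score with Pearson's r = 0.954 (exact two-sided permutation p = 0.000198, the smallest that 5040 orders can give, adjusted p = 0.0185 over 93 relations) and Spearman's rho = 1.00 (exact permutation p = 0.000397, adjusted p = 0.0369). Without pairs 3 and 5, whose scores lay farthest from the median, r was 0.953. The pairs are also the batches, so the score and the batch cannot be told apart. Within pairs, the smallest difference of Ero1lb, 0.05 on the log2 scale, was in pair 7, where the beta cell score was lower with Adjudin by 0.10. The largest, 1.00, was in pair 3, where the score was higher by 0.70, while in pair 5 the score was higher by 3.28 and Ero1lb by 0.21. The part of the beta cell score in the difference of Ero1lb was not tested.

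**Figure D3:**
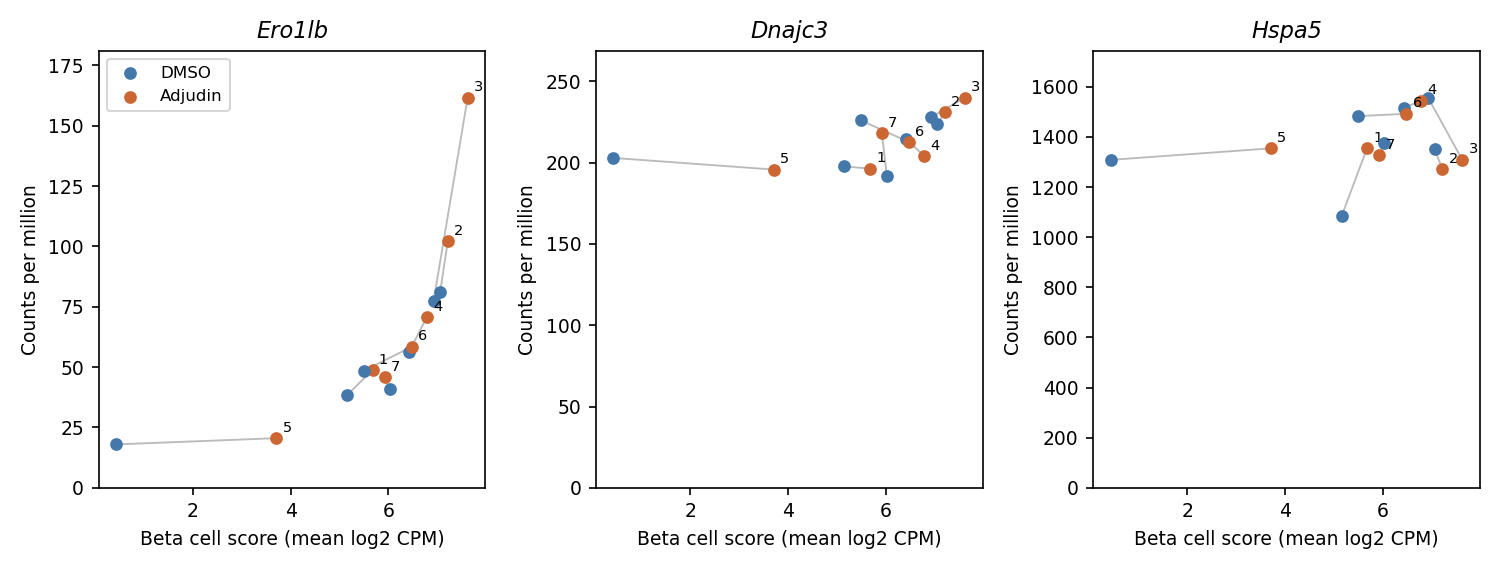
Level in CPM (y axis, from 0) of Ero1lb, Dnajc3 and Hspa5 against the beta cell score (x axis, mean log2 CPM of 10 beta cell genes) in 7 DMSO (blue) and 7 Adjudin (orange) libraries, with grey lines joining the pairs and the pair number at each Adjudin point. Ero1lb climbs from 18.0 CPM at the lowest score to 162 CPM at the highest, whereas Hspa5 stays between 1083 and 1557 CPM.

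The other 30 genes were set beside cell type scores in the same way. The score of 8 tested acinar genes, which was higher with Adjudin in 6 of 7 pairs and by 2.00 in the means, and the score of 8 mesenchymal genes, which was lower in 5 of 7 pairs and by 0.11, were used as well. Of the 93 relations, the 1 of Ero1lb with the beta cell score passed an adjusted p of 0.05. Derl2 and the cochaperone Dnajc3 came next for the beta cell score, with r = 0.810 (exact permutation p = 0.00694, adjusted p = 0.166) and rho = 0.857 (adjusted p = 0.529), and r = 0.789 (exact permutation p = 0.00813, adjusted p = 0.166) and rho = 0.964 (adjusted p = 0.129). Without pairs 3 and 5 their r was 0.887 and 0.858. Hspa5 and Pdia3 had their highest r with the mesenchymal score, 0.884 (exact permutation p = 0.00833, adjusted p = 0.166) and 0.882 (exact permutation p = 0.00893, adjusted p = 0.166), with rho of 0.750 (adjusted p = 0.685) and 0.821 (adjusted p = 0.529), and without pairs 4 and 6 these r fell to 0.646 and 0.655. With the acinar score Derl1 had the highest r, 0.841 (exact permutation p = 0.0196, adjusted p = 0.304), and rho of 0.679 (adjusted p = 0.765), and r was 0.748 without pairs 3 and 5.

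The lectin chaperones, which retain glycoproteins with monoglucosylated sugar chains, showed no difference beyond the spread between libraries. Calr, the soluble calreticulin, ranged from 570.3 to 992 CPM with a median of 860.2 in DMSO and from 677 to 964 CPM with a median of 884 in Adjudin libraries. Its log2 fold change was 0.01 ± 0.14 (SE). Canx, the membrane-bound calnexin, ranged from 342 to 497 CPM with a median of 450.0 in DMSO and from 393 to 497 CPM with a median of 438 in Adjudin libraries, with a log2 fold change of −0.01 ± 0.09 (SE). Both genes were lowest in DMSO replicates 1 and 7.

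The stress sensors and regulators were expressed in every library. Xbp1, whose mRNA IRE1α splices to make an active transcription factor, averaged 221 ± 19.1 CPM with DMSO and 234 ± 17.5 CPM with Adjudin, with a log2 fold change of 0.07 ± 0.07 (SE) and a 95% interval of −0.09 to 0.22. The sensors themselves had log2 fold changes of −0.00 (Ern1), 0.03 (Eif2ak3) and −0.02 (Atf6). Wfs1, the ER membrane protein whose loss causes beta cell failure in Wolfram syndrome, had the smallest p of the role, 0.302 by edgeR. It ranged from 15.1 to 24.3 CPM with a median of 22.7 in DMSO and from 15.8 to 38.3 CPM with a median of 21.9 in Adjudin libraries. Adjudin replicate 3 alone lay above 27.7 CPM, and that library also had the highest Ero1lb, Ero1l, Eif2ak3 and Atf6 of the 14 and the highest beta cell score. The log2 fold change of Wfs1 was 0.18 ± 0.17 (SE), with 4 of 7 pairs higher.

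ER-associated degradation, which returns misfolded proteins to the cytosol for the proteasome, had 7 of the genes, and their median log2 fold change was 0.01. Syvn1, the ubiquitin ligase HRD1, had the smallest p, 0.449 by edgeR, and a log2 fold change of −0.10 ± 0.13 (SE). It was at 40.3 to 68.3 CPM with a median of 51.9 in DMSO and 35.4 to 62.3 CPM with a median of 51.5 in Adjudin libraries. Its partner Sel1l had −0.07, and Edem1, which marks glycoproteins for disposal, −0.04. Herpud1, a component of the ligase complex that ER stress induces, had 0.04 ± 0.08 (SE), at 83.0 ± 10.1 and 86.2 ± 7.25 CPM. The derlins, membrane proteins of the retrotranslocation channel, had 0.01 (Derl1), 0.04 (Derl2) and 0.17 (Derl3). Derl3 had the widest swings within pairs, from −0.97 in pair 5 to 0.87 in pair 4, at levels of 2.17 to 9.10 CPM. Derl1 was the steadiest of the 31 genes, with a coefficient of variation of 5.15% over the 14 libraries, and 28 of the 31 stayed under 20%.

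Within pairs the median difference of the 31 genes stayed near 0 and had no common direction, although Ero1lb, Derl3, Wfs1 and Ero1l each differed by more than 0.5 on the log2 scale in at least 1 pair. The number of the 31 that were higher with Adjudin was 23, 13, 15, 15, 11, 13 and 21 in pairs 1 to 7, and the median difference was 0.07, −0.05, −0.01, −0.01, −0.02, −0.07 and 0.05 on the log2 scale. Pairs 1 and 7 thus had more higher than lower values and the other 5 pairs fewer. Of all genes tested, 48.8%, 49.4%, 49.5%, 49.4%, 48.4%, 50.3% and 47.2% were higher with Adjudin in pairs 1 to 7. In pair 1, Hyou1 was higher by 0.35 and Hspa5 by 0.32, and DMSO replicate 1 had 2 of the 31 genes above their own mean over the libraries. In pair 3, Hspa5 was lower with Adjudin by 0.31 and Hsp90b1 by 0.29, while Ern1 was higher by 0.35 and Wfs1 by 0.62. The genes did not follow a single pattern even within a library: in DMSO replicate 7, the most deeply sequenced, Calr was at its lowest of the 14 libraries, 570.3 CPM, and Hsp90b1 and Pdia6 at their highest, 1254 and 874 CPM.

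**Figure D4:**
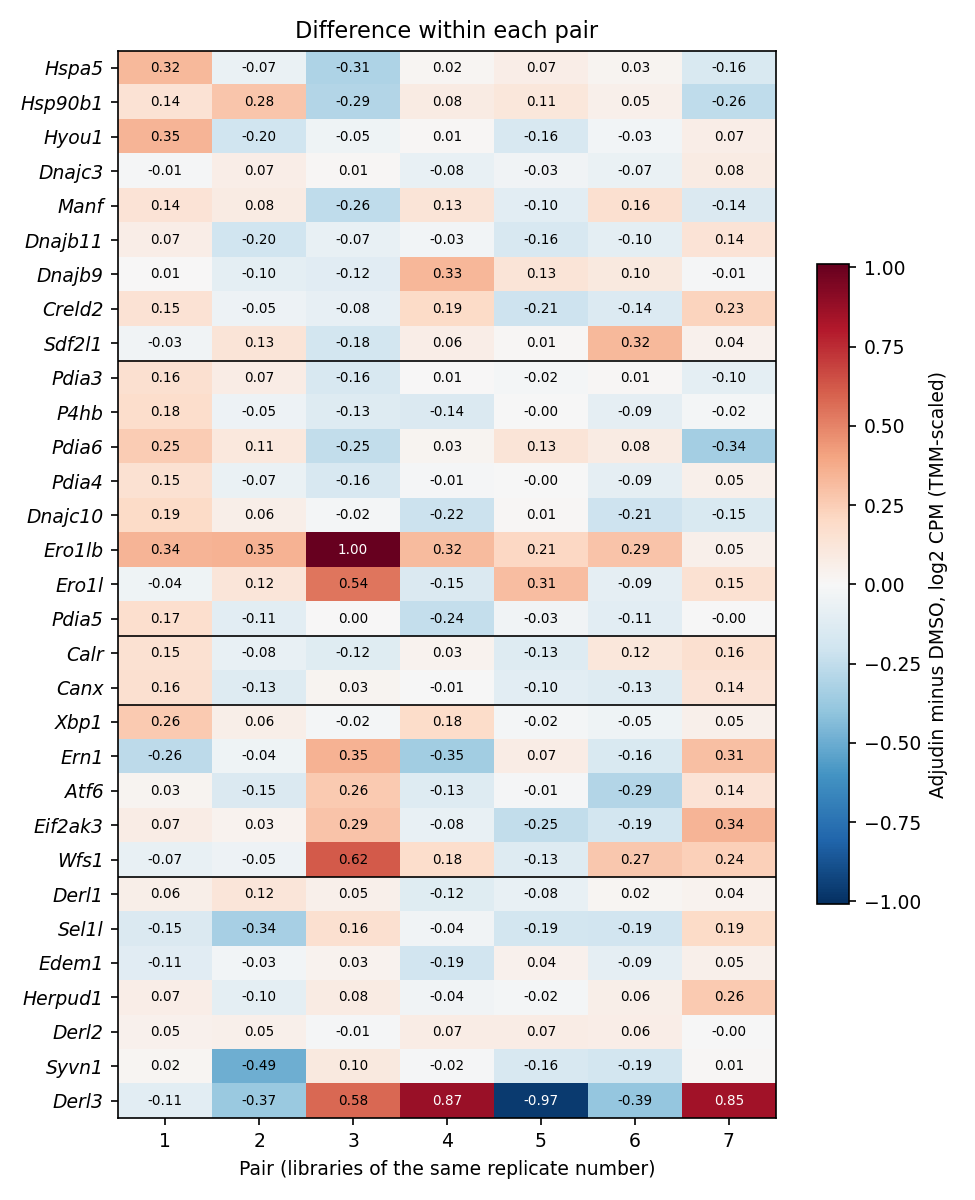
Difference between the Adjudin and the DMSO library of each pair (columns, pairs 1 to 7) for each of the 31 genes (rows, grouped by role), in log2 CPM after TMM scaling, with red for higher and blue for lower with Adjudin. The Ero1lb row is red throughout, from 0.05 to 1.00, and the other rows mix both colours.

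DMSO replicate 5 allows the genes to be read in a library with almost no beta cell mRNA. There the 31 genes summed to 9004 CPM, inside the 7579 to 9806 CPM of the other DMSO libraries, and 15 of the 31 lay above their own mean. Ero1lb, Pdia6 and Derl2 were there at their lowest of all 14 libraries, 18.0, 549 and 64.3 CPM. Eif2ak3, Calr and Sel1l, among others, were at their highest of the DMSO libraries, 55.6, 992 and 163 CPM. With both libraries of number 5 left out, 0 of the 31 genes passed by edgeR with or without the block. The unadjusted p was under 0.05 for 0 of them without the block and for 1 with it, Ero1lb, whose log2 fold change was 0.48 without and 0.40 with the block.

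Fold changes were also set beside the promoter motifs. The median log2 fold change was 0.00 over the 12 with either motif, between −0.10 for Syvn1 and 0.47 for Ero1lb, and −0.00 over the 15 with neither, between −0.07 for Sel1l and 0.18 for Wfs1. The values of the 4 genes with no window in the table, Atf6, Derl1, Hyou1 and Manf, had a median of −0.01.

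Neighbouring parts of the secretory pathway were read from lists of other genes. Of 20 tested folding enzymes outside the 31, by edgeR 0 passed and 0 reached an unadjusted p under 0.05, and the median log2 fold change was −0.02. Serpinh1, the collagen chaperone HSP47, was the most abundant of them at 2340.2 ± 372 and 2249 ± 327 CPM, a higher mean CPM than that of any of the 31 genes, with a log2 fold change of −0.07. The thioredoxin-domain protein Txndc11 was at 55.5 ± 6.62 and 52.1 ± 6.79 CPM and was lower with Adjudin in 7 of 7 pairs, with an unadjusted p of 0.0420 with the block and 0.267 without. Cdnf, a paralogue of Manf, had −0.38 at 1.43 and 1.09 CPM, and the prolyl isomerase Fkbp11 had 0.12.

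The 14 genes for translocation and signal peptide cleavage, the 11 for oligosaccharyl transfer and glucose trimming and the 16 other degradation genes had median log2 fold changes of −0.01, 0.00 and −0.01, and 0 of each had an unadjusted p under 0.05 in either fit. Ssr3, of the translocon-associated complex, was the most abundant of the first list at 732 ± 142 and 699 ± 92.5 CPM, with a log2 fold change of −0.09, and Ssr2 and Spcs3 had 0.04 each. Rpn1, a subunit of the oligosaccharyltransferase, led the second with 0.06, and its partners Krtcap2 and Stt3a had 0.11 and −0.04. Vcp, the ATPase that pulls substrates out of the membrane, led the third with −0.09, and Erlec1 and Nploc4 had 0.05 and −0.08.

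Targets of the PERK and ATF4 branch had small positive values in all 7 tested genes, 0.05 to 0.12 on the log2 scale with a median of 0.10, where 8490 of all 18732 genes were positive. Atf4, the transcription factor of the branch, was at 324 ± 22.5 and 349 ± 34.4 CPM, with a log2 fold change of 0.09 ± 0.08 (SE). Ddit3 (CHOP), a factor that promotes cell death in prolonged stress, was at 30.8 ± 2.93 and 33.9 ± 4.42 CPM, with 0.12 ± 0.09 (SE), and Ppp1r15a, which reverses the phosphorylation of eIF2α, had 0.10. Of these 7, 0 had an unadjusted p under 0.05 in either fit. Of the 6 genes that process or resemble ATF6, 5 had negative values and the median was −0.03. The protease Mbtps1 was the most abundant, with −0.03, Mbtps2 had −0.04, and the ATF6 relatives Creb3l1 and Creb3l2 had −0.16 and −0.11, each lower in 6 of 7 pairs.

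Chaperones outside the ER included the gene with the smallest p of these 8 lists. Hspa1a, the stress-inducible cytosolic HSP70, was at 5.67, 5.30, 4.91, 5.40, 9.14, 5.22 and 5.22 CPM in DMSO replicates 1 to 7 and at 7.21, 6.37, 8.99, 8.60, 10.2, 7.77 and 7.08 CPM in Adjudin replicates 1 to 7. It was higher in 7 of 7 pairs, and DMSO replicate 5 was the 1 DMSO library inside the Adjudin range. The log2 fold change was 0.45 ± 0.15 (SE) with an unadjusted p of 0.00962 by edgeR and an adjusted p of 1.00, which did not pass, while DESeq2 with the block gave an adjusted p of 0.0376. Its near-identical copy Hspa1b had 0.20 ± 0.12 (SE) and an unadjusted p of 0.0154 with the block, and reads of these copies may have been assigned to either gene. Hspa8, the constitutive HSP70 and the most abundant of the 12 cytosolic chaperones, was at 1389 ± 63.3 and 1443 ± 99.996 CPM with 0.04, and the cochaperone Stip1 had 0.08. Of the 6 mitochondrial chaperones, Hspa9 (mortalin) was the most abundant at 367 ± 41.8 and 408 ± 31.9 CPM, with 0.14 ± 0.08 (SE), 6 of 7 pairs higher and an unadjusted p of 0.0309 with the block by edgeR. Trap1 and Hspd1 had 0.09 and 0.08.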

How the data were processed

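RNA was sequenced from cultured P0 mouse islets, with 7 DMSO and 7 Adjudin libraries grouped by their labels. The deposited values are read counts per gene with no normalization. The authors made them, per the methods and the submitters' processing notes, with HISAT2 2.0.5 for alignment of paired reads to GRCm38/mm10 and featureCounts 1.5.0-p3 for counting. Which annotation release and strand setting were used, and how multiply mapped reads were treated, is not given in the sources used here. Near-identical copies and overlapping or antisense genes therefore have uncertain values. Gene positions and lengths were taken from the deposited table.

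Genes were filtered with filterByExpr (minimum count 10), scaled by TMM and fitted with edgeR 4.0.16 (R 4.3.3, robust quasi-likelihood fit, F test). Treatment was the term of the model, and p-values were adjusted over all 18732 genes (Benjamini-Hochberg). Fold changes are Adjudin over DMSO. Same-numbered libraries have the same batch in the labels, and their numbers were taken as pairs. Their deviations from the group means correlated with a mean r of 0.246 across genes between same-numbered libraries (−0.135 to 0.451) and −0.0410 between others. Pair differences and scores used log2 CPM with a prior count of 2. Alternatives were the replicate block, DESeq2 1.42.0 with and without it, limma-voom 3.58.1, other scalings, no filter, a prior count of 0.5, and leaving out each library or pair. The edgeR fits with and without the block, and DESeq2 without it, were tested on simulated counts that held no differences between pairs. DESeq2 with the block, limma-voom and the other alternatives were not tested in this way. The p-values of the fits without the block measure the spread between these pooled samples. Those of the fits with the block measure the spread of the differences within pairs, and the permutation p-values concern the order of the pair means.

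The members and the gene lists were chosen with earlier results of these data known. The text names all 31 genes, and singles out those at an unadjusted p under 0.05 in either edgeR fit, the 5 most abundant per length and, in each role, the one with the smallest p. Of these, Hspa5 and Ero1lb have their value in every library, and the others the lowest, median and highest of each group. Of every other list it names the most abundant gene and up to 3 of the smallest p. Promoter sequences are from RefSeq (GRCm38.p6). They matched 27 of the 31 genes, with Ero1l and Ero1lb found as Ero1a and Ero1b. Protein sequences were not used here.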

Additional observations from a re-analysis of the deposited data

Results flagged for a closer look

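The 62 groups examined were each of the 31 genes in DMSO or in Adjudin libraries. On TMM-scaled log2 CPM, 2 had a library that stood apart from the other 6, where chance gives about 1 in 20. The levels printed here are CPM without that scaling, on which the gap of Derl1 is smaller relative to its range. In Adjudin libraries Eif2ak3 was highest in replicate 3, at 63.1 CPM against 46.3 CPM in the next. Derl1 was lowest in Adjudin replicate 5, at 131 CPM against 142 CPM in the next. Adjudin replicate 3 also had the highest beta cell score of the 14 libraries, 7.62, and Adjudin replicate 5 the lowest of the Adjudin libraries, 3.71, and the part of the score in both values was not tested.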

How the results depend on the processing

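Under the alternatives run, 0 of the 31 genes passed an adjusted p of 0.05, and the lowest adjusted p, 0.0903 for Ero1lb, came from DESeq2 with the replicate block. The block gave 1 of the 31 an unadjusted p under 0.05, Ero1lb, in edgeR and in DESeq2, against 0 without it. In edgeR this held with each pair left out (0 to 1 over all leave-outs), and DESeq2 was not refitted without pairs. Among the 31 the block changed no other call, while outside them DESeq2 with the block called Hspa1a (adjusted p = 0.0376), 1 beta cell and 3 acinar genes, which edgeR did not. Over all genes, edgeR with the block and limma-voom called 0, DESeq2 3, DESeq2 with the block 105, and fits without a library or pair 0 to 1. Genes at an unadjusted p under 0.05 numbered 1055 and 1218 with the block in edgeR and DESeq2, 2884 without the filter and 315 to 1252 without a library or pair, where the blocked fits without a pair were chosen after seeing the data. The log2 fold change kept its direction in 14 of the 31 genes. The other 17, Derl3 at 0.17 and genes within 0.1 of 0, turned in some fits, and the cause was not tested. Scaling by library totals gave 0.013 for Dnajc3, 0.0097 for Pdia3, 0.0097 for Pdia6, 0.0014 for Canx, 1.8e-06 for Hyou1 and 0.013 for Ern1. No filter gave 0.012 for Dnajc3, 0.0092 for Pdia3, 0.0064 for Pdia6, 0.0018 for Canx and 0.012 for Ern1. Pdia6 had 0.00061 with the block in edgeR, 0.0032 in DESeq2 and 0.015 by limma-voom, and Hyou1 5.3e-05 by DESeq2 with the block. Without a library or pair, blocked fits included, the values ranged from −0.072 to 0.050 for Hspa5, −0.031 to 0.085 for Hsp90b1, −0.025 to 0.027 for Dnajc3, −0.088 to 0.00031 for Dnajc10, −0.047 to 0.037 for Pdia3, −0.080 to 0.035 for Pdia4, −0.061 to 0.085 for Pdia6, −0.045 to 0.071 for Calr, −0.059 to 0.023 for Canx, −0.035 to 0.056 for Creld2, −0.037 to 0.064 for Manf, −0.090 to 0.067 for Hyou1, −0.086 to 0.034 for Atf6, −0.058 to 0.059 for Ern1, −0.047 to 0.083 for Eif2ak3, −0.0052 to 0.049 for Derl1 and −0.055 to 0.36 for Derl3. The correlation of Edem1 with the beta cell score ranged from −0.434 to 0.092. Depth limits Derl3 the most, with 67 counts in its lowest library.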
